A study of Nicotiana tabacum with 16 samples.

Results

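In tobacco (Nicotiana tabacum) roots of the genotype myc2a, a long run of gene models in ID group 11 was at about 50% of the K326 level in 4 of 5 libraries, replicates 2 to 5, and at about the full K326 level in replicate 1. The run holds all gene models whose identifier begins with Ntab11g and whose serial number, the 6 digits after the g, lies from 13420 to 26250. It has 1284 of the 63697 gene models in the count table, and 48.9% of the 2628 gene models of ID group 11. The members were chosen by the level of myc2a replicates 2 to 5 relative to K326 in these same libraries, so the fall itself is given as a description, without a test. Nothing in the sources used here says that serial numbers follow the order of genes on a chromosome.

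The table covers 16 root RNA sequencing libraries of 4 nearly isogenic genotypes. They are myc2a (5 libraries), nic1 nic2 (3), nic1 nic2 myc2a (4), each with recessive alleles at the named loci in the K326 background, and K326 itself (4), a flue-cured cultivar. All plants were grown in greenhouse pots standing in water and were topped at flowering, and roots were taken 18 h later. The origin of the recessive alleles, and whether each library was a separate plant, are not given in the labels. The p-values then measure only how these samples vary, which may be technical.

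MYC2a belongs to the bHLH transcription factors that act in the jasmonate response and takes part in the control of nicotine synthesis. Tobacco makes its nicotine in the roots and makes more of it once the flowering shoot is cut off, and the Nic loci influence how much. Tobacco is an allotetraploid, so many genes have a close copy in the other subgenome, and neighbouring tandem copies are common. Whether members share reads with such copies was not analysed here, and neither were overlapping or antisense genes, so the level of any single member is uncertain to that extent. None of the identifiers is paired with a gene name in the sources used here, so members are given by identifier and their functions are not described. For the same reason neither the mutated loci nor root markers could be looked up to check the labelled genotypes and tissue.

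Levels are CPM, a gene model's share of a library's counts with library sizes adjusted by the TMM method, and the percent of K326 is a library's CPM over the mean of the 4 K326 libraries. Of the libraries, 15 had total counts from 32.2 to 40.9 M, and K326 replicate 2, the deepest, had 71.8 M. Of the 1284 members, 263 had no counts in any library and 1021 had counts. A mean of at least 2 CPM over all 16 libraries was reached by 654 members, called expressed below, along with 699 other gene models of ID group 11 and 32833 of the other ID groups. Members under that mean enter the sums over all members and the counts and sums by level class. Some also enter the tests between genotypes, which covered 838 members.

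The median expressed member was at 50.3, 50.1, 50.7 and 51.4% of K326 in myc2a replicates 2, 3, 4 and 5. In myc2a replicate 1 it was at 98.3%. The 4 lower libraries lay close together, and replicate 1 lay with the other genotypes. Those medians were 97.1 to 99.2% in the 3 nic1 nic2 libraries, 97.7 to 101% in the 4 libraries of nic1 nic2 myc2a, a genotype that by its label carries the recessive myc2a allele as well, and 97.1 to 101% in the single K326 libraries against their own mean. The gene models of ID group 11 outside the stretch had medians of 95.1 to 101% over all 16 libraries. Set against that remainder of ID group 11 in the same library, the stretch was at 50.7, 50.3, 51.4 and 53.2% in myc2a replicates 2 to 5 and at 99.0% in replicate 1.

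Summed over all members, the stretch held 8092, 8213, 8261 and 8169 CPM in myc2a replicates 2, 3, 4 and 5, and 16298 CPM in myc2a replicate 1. The nic1 nic2 libraries held 15772 ± 207 CPM (SD, n = 3), the nic1 nic2 myc2a libraries 15806 ± 216 CPM (n = 4) and the K326 libraries 16194 ± 225 CPM (n = 4). The sum in replicate 1 was within 1 SD of K326, and the sums in the other 4 myc2a libraries did not overlap with any other library. Scaled by library size alone, the median of myc2a replicate 5 was 56.0%, and the median of the other ID groups in this library then lay 0.12 higher on the log2 scale.

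**Figure D1:**
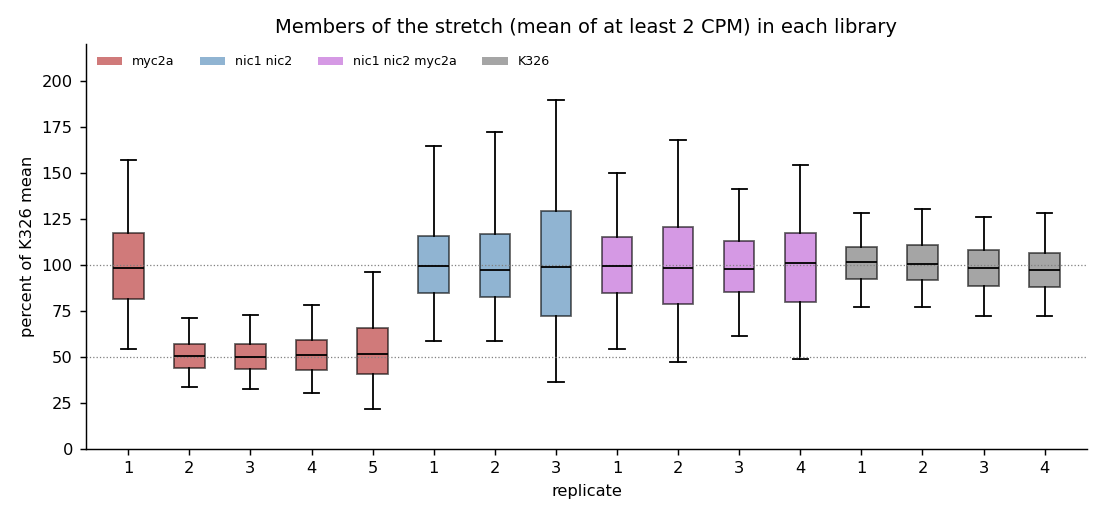
Percent of the K326 mean over the 654 expressed members in each of the 16 libraries, by genotype and replicate. Boxes show the quartiles and median, and whiskers the 5th and 95th percentiles; the boxes of myc2a replicates 2 to 5 lie around 50% and all other boxes around 100%.

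Within a library the members spread about these medians. The middle 50% of members lay between 44.1 and 57.1% of K326 in myc2a replicate 2, 43.4 and 57.0% in replicate 3, 42.6 and 59.2% in replicate 4, and 40.6 and 65.8% in replicate 5. In myc2a replicate 1 that range was 81.4 to 117%. The SD of the log2 ratio over members was 0.39, 0.40, 0.47 and 0.69 in replicates 2 to 5 and 0.51 in replicate 1, against 0.46 to 0.73 in nic1 nic2, 0.41 to 0.60 in nic1 nic2 myc2a and 0.25 to 0.34 in K326, whose libraries are part of their own mean. The scatter in the halved libraries was thus above that of K326 and similar in size to that of the genotypes with nic1 nic2, with myc2a replicate 5 and nic1 nic2 replicate 3 the widest.

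A member was called low when it was under 70.7% of K326, the point midway between 50 and 100% on a log scale. Of the 654 expressed members, 620 (94.8%) were low in myc2a replicate 2, 613 (93.7%) in replicate 3, 584 (89.3%) in replicate 4 and 527 (80.6%) in replicate 5. In replicate 1, 93 (14.2%) were low, where the share was 15.5% over all expressed gene models and 14.3% in the rest of ID group 11. The number was 62 to 151 in the nic1 nic2 libraries, 60 to 110 in the nic1 nic2 myc2a libraries and 15 to 32 in the K326 libraries. In all 4 of replicates 2 to 5, 465 members (71.1%) were low, while 127 were low in 3 of these libraries, 46 in a pair of them, 11 in 1 and 5 in none. Over all 34186 expressed gene models 1.72% were low in all 4, and 1 of the 699 other expressed gene models of ID group 11 was.

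Counted by overlap instead of size, 525 of 654 members (80.3%) had each of myc2a replicates 2 to 5 below every K326 library, where the share over all expressed gene models was 3.09% and that in the rest of ID group 11 was 16 of 699 (2.29%). Since these contrasts chose the members, nothing is read from the gap. In myc2a replicate 1, which did not show the fall, 182 members (27.8%) lay below every K326 library, the share over all expressed gene models being 27.8% and in the rest of ID group 11 28.3%.

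Replicates 2 to 5 were also at about 50% of myc2a replicate 1, a library of the same labelled genotype. Over the 652 expressed members with counts in replicate 1, the median was 50.9, 50.2, 50.7 and 53.3% of replicate 1 in replicates 2, 3, 4 and 5. The ratio to K326 and the ratio to replicate 1 share the libraries on top, by which the stretch was chosen. With replicate 1 at 98.3% of K326, medians near 50% follow from that choice, and nothing more is read from them.

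Along the serial numbers the level was even from end to end. In 10 consecutive blocks of 65 or 66 expressed members, the block medians were 47.6 to 51.7% of K326 in myc2a replicate 2, 47.9 to 51.6% in replicate 3, 46.9 to 55.8% in replicate 4 and 50.0 to 54.6% in replicate 5. In myc2a replicate 1 they were 90.8 to 104%, and in the other genotypes 90.5 to 110%. The lowest block differed between libraries: it was the first, with serial numbers 13420 to 14820, in replicates 2 and 3, the fourth, with 18020 to 19190, in replicates 4 and 5, and the ninth, with 24020 to 25130, in replicate 1. No block in replicates 2 to 5 reached the lowest block of any other library.

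**Figure D2:**
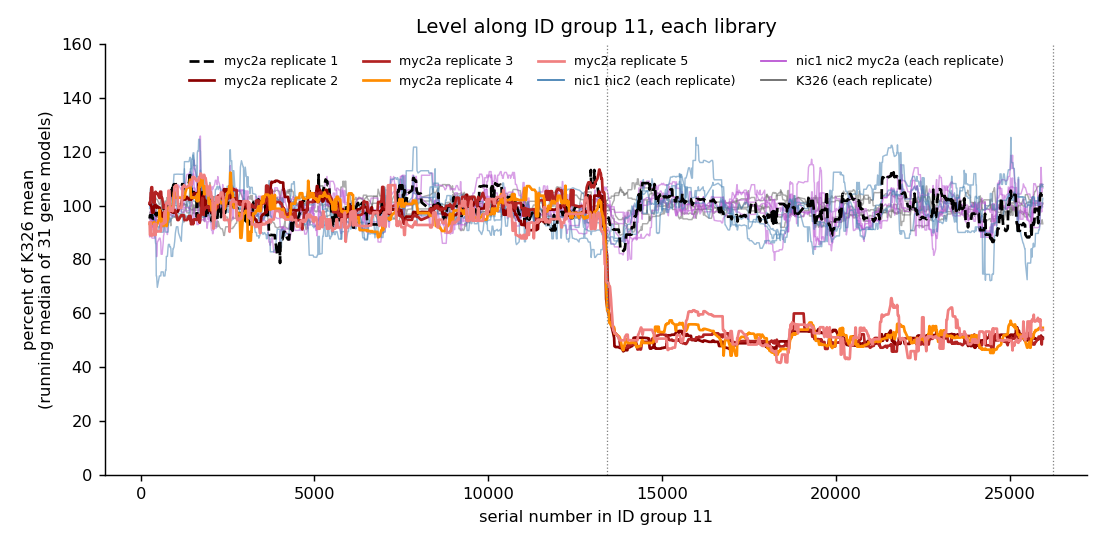
Running median over 31 neighbouring expressed gene models of the percent of K326, along the serial numbers of ID group 11, with 1 line for each library. Dotted vertical lines mark serial numbers 13420 and 26250; the lines of myc2a replicates 2 to 5 drop to around 50% at the lower one and remain there, while myc2a replicate 1 follows the other genotypes near 100%.

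The lower end was set by the levels of replicates 2 to 5 themselves. The step there restates the choice and is given as a description. The 20 expressed gene models just outside it, with serial numbers 13070 to 13390, had medians of 120, 108, 116, 111 and 105% of K326 in myc2a replicates 1 to 5, and none of them had all of replicates 2 to 5 below every K326 library. The first 20 expressed members, 13420 to 13930, had medians of 83.4% in replicate 1 and of 46.8, 47.3, 48.8 and 50.2% in replicates 2 to 5, and 17 of them had all of replicates 2 to 5 below every K326 library. Replicate 1, not halved over the stretch, was also lower inside this end, at 83.4% against 120% outside. The place of the step is therefore not read as a result. The first member, Ntab11g013420-1.1, was at 2.00 CPM in myc2a replicate 1 and at 1.34, 2.31, 1.40 and 1.45 CPM in replicates 2 to 5, against 5.02, 5.91, 3.30 and 5.19 CPM in K326. Its replicate 1 was low too, at 41.1% of K326. The last gene model outside, Ntab11g013390-1.1, was at 143, 130, 120, 147 and 236% of K326 in replicates 1 to 5, with the K326 libraries at 66.8 to 131%.

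Of the 20 gene models outside the lower end, 2 had all of replicates 2 to 5 above every K326 library, where the share was 1.64% over all expressed gene models and 19 of 699 (2.72%) in the rest of ID group 11. Ntab11g013350-1.1 was at 33.3, 35.3, 36.5 and 40.5 CPM in myc2a replicates 2 to 5 and at 25.1 CPM in replicate 1, against 25.9, 28.1, 29.0 and 27.1 CPM in K326. Ntab11g013370-1.1 was at 20.9, 21.7, 19.9 and 20.1 CPM in replicates 2 to 5 and at 12.9 CPM in replicate 1, against 14.1, 14.4, 13.5 and 12.1 CPM in K326. In both, each of replicates 2 to 5 was above every K326 library and replicate 1 was not. Between them, Ntab11g013360-1.1 was at 129, 158, 119 and 155% of K326 in replicates 2 to 5 and at 98.1% in replicate 1, but its K326 libraries reached 127%. One step further out, Ntab11g013340-1.1 was at 94.9, 113, 109 and 100% in replicates 2 to 5, within the K326 range of 87.2 to 115%. These 4 gene models were chosen after their values were seen.

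**Figure D3:**
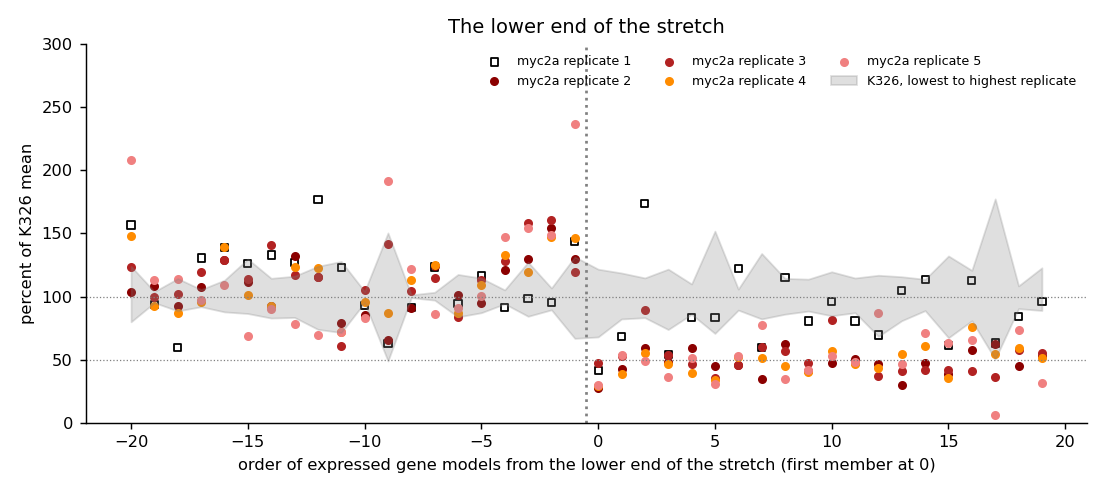
Percent of the K326 mean for the 20 expressed gene models before and the 20 after the lower end, in order, with 1 symbol for each myc2a library and a band from the lowest to the highest K326 replicate. Left of the dotted line the myc2a symbols lie around or above the K326 band, and right of it the filled symbols of replicates 2 to 5 lie mostly below the band, near 50%, while the open squares of replicate 1 scatter around it.

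At the upper end the stretch ran to the last expressed gene model of the ID group. The last 20 expressed members, 25890 to 26250, had medians of 51.7, 51.5, 54.0 and 52.9% of K326 in myc2a replicates 2 to 5 and of 101% in replicate 1, and 16 of them had all of replicates 2 to 5 below every K326 library. Beyond them lie 3 gene models, up to serial number 26280, that do not reach 2 CPM, so there is no expressed neighbour outside to compare with. The last member, Ntab11g026250-1.1, was at 13.5, 10.8, 11.6 and 15.3 CPM in replicates 2 to 5 and at 14.9 CPM in replicate 1, against 34.6, 33.0, 21.3 and 21.2 CPM in K326. In nic1 nic2 myc2a it ranged from 9.20 to 29.0 CPM, which overlaps both.

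The ratio hardly depended on the level of the gene model, while the scatter about it did. Taking for each member the median of its percents in myc2a replicates 2 to 5, the middle member was at 50.6% in the class of 2 to under 10 CPM (297 members), 50.9% from 10 to under 50 CPM (308), 49.4% from 50 to under 200 CPM (44) and 47.7% at 200 CPM and over (5). The quartiles were 43.3 and 59.4% in the lowest of these classes, 46.7 and 54.8% in the next and 46.8 and 52.3% in the third. Accordingly, 56.2, 81.8, 93.2 and 100% of the members of these classes were low in all 4 libraries, from the lowest class to the highest. At higher counts a single member thus lay closer to 50%. Over all 654 members this median was at 50.7%, with the 5th and 95th percentiles at 37.6 and 68.7%, and 608 members (93.0%) lay between 35.4 and 70.7%, the span nearer to 50 than to 25 or 100% on a log scale.

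Members below the expression limit were summed, since single values there rest on few reads. The 128 members from 0.5 to under 2 CPM summed to 49.5, 52.9, 51.5 and 57.5% of K326 in myc2a replicates 2 to 5, and to 82.0% in replicate 1. The 239 members with counts under 0.5 CPM summed to 50.7, 48.4, 50.1 and 57.7% in replicates 2 to 5 and to 71.3% in replicate 1. In these classes replicate 1 lay between the halved libraries and K326, whose libraries were at 91.4 to 112% in the lowest class. The lowest nic1 nic2 myc2a library in that class was at 76.0%.

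**Figure D4:**
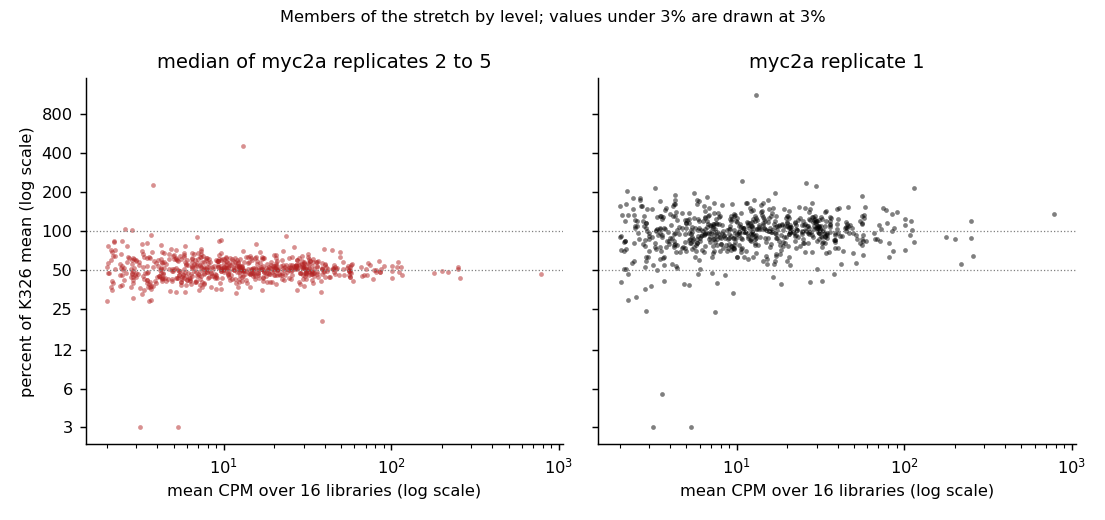
Percent of the K326 mean (log scale) against the mean CPM over 16 libraries (log scale) for the 654 expressed members, as the median of myc2a replicates 2 to 5 on the left and in myc2a replicate 1 on the right. The cloud on the left is centred on 50% at every level and narrows towards high CPM, and that on the right is centred near 100%; values under 3% are drawn at 3%.

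Typical members show the pattern in single values. Ntab11g018650-1.1, the member nearest to the median of its class, was at 13.3, 11.5, 10.6 and 14.0 CPM in myc2a replicates 2 to 5 and at 23.8 CPM in replicate 1. It was at 19.9, 27.4 and 26.0 CPM in nic1 nic2, at 24.0, 20.6, 21.3 and 24.0 CPM in nic1 nic2 myc2a, and at 24.4, 25.4, 22.9 and 25.1 CPM in K326. The 4 halved libraries did not overlap with any of the other 12. Ntab11g016230-1.1 was at 35.4, 37.6, 33.3 and 28.6 CPM in replicates 2 to 5 and at 78.1 CPM in replicate 1, against 66.0, 65.1, 78.8 and 67.3 CPM in K326, also without overlap. In the lowest expressed class the median member was less clear. Ntab11g024020-1.1 was at 0.568, 1.85, 1.69 and 3.03 CPM in replicates 2 to 5 and at 1.01 CPM in replicate 1, against 4.61, 4.45, 3.05 and 1.86 CPM in K326, where the ranges overlapped.

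The 5 members with the highest levels all had replicates 2 to 5 below every K326 library. The highest, Ntab11g020300-1.1, was at 380, 369, 493 and 352 CPM in myc2a replicates 2 to 5 and at 1099 CPM in replicate 1, against 641, 645, 854 and 1092 CPM in K326. Ntab11g014690-1.1 was at 134, 165, 161 and 114 CPM in replicates 2 to 5 and at 346 CPM in replicate 1, against 307, 265, 255 and 342 CPM in K326. In these members replicate 1 was the highest of the 9 libraries. Ntab11g024840-1.1 was at 107, 144, 155 and 132 CPM in replicates 2 to 5 and at 234 CPM in replicate 1, against 257, 345, 239 and 214 CPM in K326, with replicate 1 inside the K326 range.

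The other members of the top 5, Ntab11g025250-1.1 and Ntab11g025260-1.1, neighbour each other and were low in replicate 1 as well. Ntab11g025250-1.1 was at 185 CPM in myc2a replicate 1 and at 166, 181, 145 and 151 CPM in replicates 2 to 5, against 348, 359, 298 and 323 CPM in K326. Ntab11g025260-1.1 was at 241 CPM in replicate 1 and at 164, 184, 155 and 157 CPM in replicates 2 to 5, against 442, 425, 300 and 333 CPM in K326. For this pair all 5 myc2a libraries lay below all K326 libraries. Most of the nic1 nic2 (155 to 285 CPM) and nic1 nic2 myc2a (200 to 320 CPM) values of Ntab11g025260-1.1 were also below K326, with 320 CPM inside its range. Over the stretch, 64 expressed members (9.79%) were under 70.7% in all 5 myc2a libraries, against 0.483% of all expressed gene models. Since replicates 2 to 5 chose the stretch, nothing is read from that gap.

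Departures from 50% were counted by rules that each of the 4 libraries had to meet, which by itself keeps the counts low. At most 35% of K326 in each of replicates 2 to 5 was found for 4 members, at least 80% in each for 1, and at least 70.7% in each for 5. At 80% or more in each there were 2 without K326 replicate 1 or 4, and at 70.7% or more 8 without K326 replicate 2 and 9 without K326 replicate 3. By the median over the 4 libraries, 27 members were at 70.7% or more and 19 were under 35.4%. In single libraries, 42, 51, 68 and 112 members were under 35.4% in replicates 2, 3, 4 and 5. The shares of all expressed gene models past these limits are not given here, so nothing is read from the counts.

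Without any counts in all 5 myc2a libraries, replicate 1 included, were Ntab11g019640-1.1 and Ntab11g018170-1.1. Ntab11g019640-1.1 was at 3.81, 6.89 and 11.9 CPM in nic1 nic2, at 9.79, 5.64, 3.33 and 4.37 CPM in nic1 nic2 myc2a, and at 14.5, 9.25, 6.37 and 8.94 CPM in K326. With a floor of 3 counts in each myc2a library, it was at least 121-fold lower in myc2a than in K326. Ntab11g018170-1.1 was at 3.75, 2.31 and 0.400 CPM in nic1 nic2, at 8.24, 5.87, 6.31 and 7.45 CPM in nic1 nic2 myc2a, and at 3.22, 4.31, 4.68 and 4.26 CPM in K326, and was at least 51.2-fold lower in myc2a by the same floor. In contrast to the stretch as a whole, replicate 1 did not differ from the other 4 libraries in this pair. They are not adjacent, and their expressed neighbours were present: the ones on either side of Ntab11g018170-1.1, Ntab11g018150-1.1 and Ntab11g018180-1.1, were at 42.2 to 63.2% and 41.6 to 48.9% of K326 in replicates 2 to 5, and at 63.1 and 115% in replicate 1. Those beside Ntab11g019640-1.1, Ntab11g019600-1.1 and Ntab11g019660-1.1, were at 26.8 to 67.2% and 54.9 to 69.6% in replicates 2 to 5, and at 45.5 and 68.9% in replicate 1.

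Well under 50% but present was Ntab11g017280-1.1, at 12.7, 12.5, 9.19 and 3.11 CPM in myc2a replicates 2 to 5 and at 39.9 CPM in replicate 1, against 45.7, 45.1, 67.5 and 57.7 CPM in K326. It was at 49.1, 32.1 and 46.2 CPM in nic1 nic2 and at 38.7, 33.5, 56.8 and 67.6 CPM in nic1 nic2 myc2a. All 12 other libraries were above the 4 halved ones, and the median of these was 20.1% of K326. Ntab11g018470-1.1 was at 1.08, 1.09, 1.17 and 1.19 CPM in replicates 2 to 5 and at 4.25 CPM in replicate 1, against 6.85, 2.88, 1.95 and 3.22 CPM in K326. Its median percent of 30.2% rested on K326 replicate 1, without which it was 42.0%. The other members with the lowest medians by the rule for naming were Ntab11g022400-1.1 (28.6%) and Ntab11g020120-1.1 (28.7%), both under 6 CPM in the K326 libraries, and the first member of the stretch, Ntab11g013420-1.1, was at 29.4%.

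Opposite in direction to the rest of the stretch was Ntab11g019180-1.1, the only expressed member at or above 80% of K326 in each of replicates 2 to 5. It was at 21.4, 24.9, 20.3 and 27.6 CPM in myc2a replicates 2 to 5 and at 57.4 CPM in replicate 1. It was at 4.99, 3.18 and 12.7 CPM in nic1 nic2, at 4.29, 1.55, 5.41 and 2.53 CPM in nic1 nic2 myc2a, and at 5.54, 5.99, 3.61 and 5.26 CPM in K326. All 5 myc2a libraries were above all other libraries, with replicate 1 the highest. Relative to replicate 1, replicates 2 to 5 were at 37.3, 43.4, 35.3 and 48.1%. Its expressed neighbours on either side, Ntab11g019100-1.1 and Ntab11g019190-1.1, were at 56.6 to 107% and 29.8 to 87.2% of K326 in replicates 2 to 5, and at 80.7 and 86.0% in replicate 1.

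**Figure D5:**
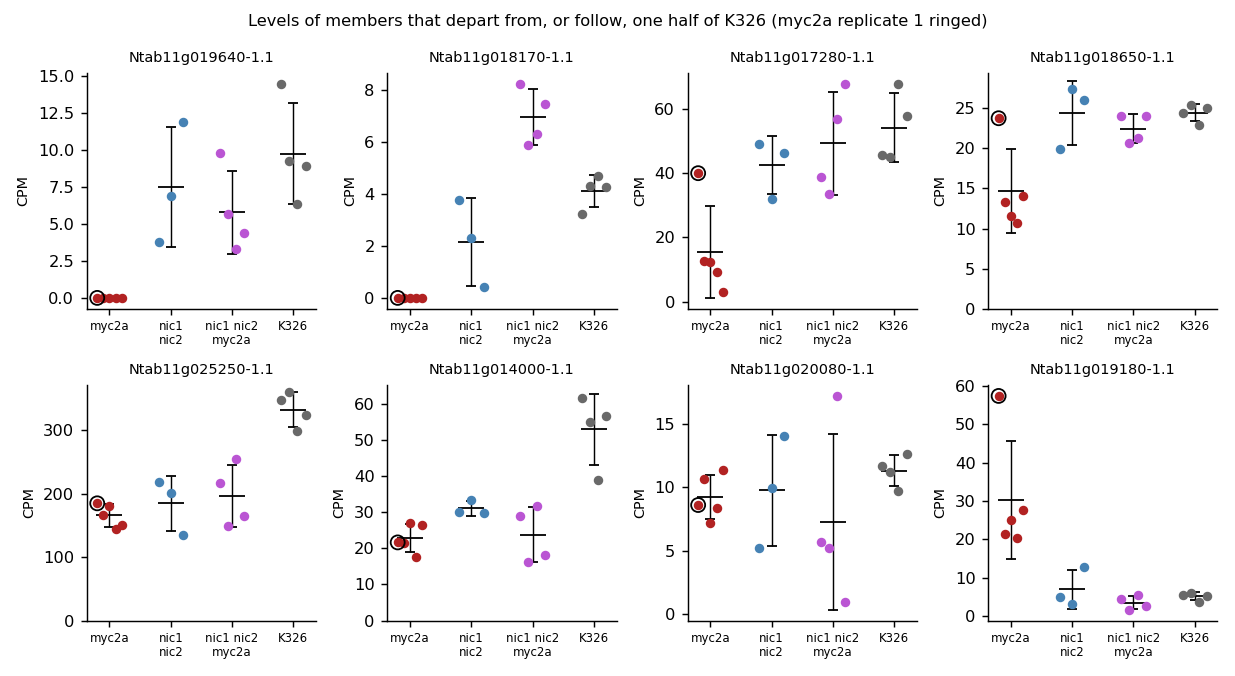
CPM of 8 members in each library, with myc2a left and K326 right; points are libraries, bars the mean and SD of the genotype, and the ringed point is myc2a replicate 1. The first 2 panels have no counts in myc2a, Ntab11g018650-1.1 shows the typical pattern with the ringed point at the K326 level, and in Ntab11g019180-1.1 all myc2a points lie above the other genotypes.

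The remaining members with the highest medians were low and variable. Ntab11g025970-1.1 was at 1.29, 6.44, 6.74 and 1.97 CPM in replicates 2 to 5 and at 1.40 CPM in replicate 1, against 1.88, 2.61, 2.37 and 0.604 CPM in K326. Ntab11g021740-1.1 was at 1.47, 1.17, 1.92 and 2.90 CPM in replicates 2 to 5 and at 1.58 CPM in replicate 1, against 1.86, 1.25, 1.75 and 1.74 CPM in K326. In both the myc2a and K326 ranges overlapped. Higher values in these members lay in the other genotypes: Ntab11g021740-1.1 was at 6.11, 6.39 and 1.97 CPM in nic1 nic2, and Ntab11g025970-1.1 at 8.29, 8.98 and 4.03 CPM. The medians of Ntab11g022600-1.1 and Ntab11g022290-1.1 were 101 and 93.1%, likewise with overlapping ranges.

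A neighbouring pair, chosen after its values were seen, had medians above 80% of K326, but with uneven libraries. Ntab11g020080-1.1 was at 10.7, 7.23, 8.34 and 11.4 CPM in myc2a replicates 2 to 5 and at 8.61 CPM in replicate 1, against 11.7, 11.2, 9.70 and 12.6 CPM in K326. Ntab11g020100-1.1 was at 11.3, 7.01, 9.01 and 11.3 CPM in replicates 2 to 5 and at 8.86 CPM in replicate 1, against 12.5, 12.3, 10.3 and 13.0 CPM in K326. The medians were 84.1 and 84.2% of K326, but in replicate 3 the pair was at 63.9 and 58.2%. In both members replicates 3 and 4 lay below every K326 library, and so did replicate 1. The pair moved together in the other genotypes too, with 17.2 and 16.1 CPM in nic1 nic2 myc2a replicate 3 and 0.965 and 0.905 CPM in replicate 4; whether they share reads was not analysed here.

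In some members replicate 1 was not above the other myc2a libraries. Of the 652 with counts in replicate 1, 408 were under 70.7% of replicate 1 in each of replicates 2 to 5, and 19 were at 80% or more of it in each, with no upper limit. The shares of all expressed gene models past these limits are not given here, so nothing is read from either count. Among the 19, Ntab11g014000-1.1 was at 21.6 CPM in replicate 1 and at 21.5, 27.1, 17.5 and 26.5 CPM in replicates 2 to 5, against 61.6, 54.9, 38.9 and 56.6 CPM in K326. Ntab11g022810-1.1 was at 33.2% of K326 in replicate 1 and at 45.2, 41.5, 34.6 and 37.2% in replicates 2 to 5. In both of these all 5 myc2a libraries were at 51.2% of K326 or less. Ntab11g025560-1.1 was at 5.49% of K326 in replicate 1, below its values of 53.6, 34.5, 43.2 and 30.7% in replicates 2 to 5. Ntab11g014750-1.1, in contrast, was at 89.6% in replicate 1 and at 75.5, 109, 83.0 and 95.1% in replicates 2 to 5, near the K326 level in all 5. These members were chosen after their values were seen, except Ntab11g014000-1.1.

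The next comparisons asked whether members differed in the genotypes with nic1 nic2. The choice of the stretch did not use these contrasts, but those against K326 share the K326 libraries with it. The myc2a libraries also enter all of them, through the scaling, the filter and the shared estimate of the spread. In nic1 nic2 roots, 0 of 838 members tested were higher than in K326 and 1 was lower (edgeR's quasi-likelihood test, Benjamini-Hochberg over 43009 gene models), where 0.339% of all gene models tested were higher and 0.579% lower. At an unadjusted p under 0.05 there were 75 members (8.95%), against 18.0% of all gene models, and the median log2 fold change of the members was 0.01. With the 2 groups alone there were 129 of 818 members and 7247 of 41732 gene models under that p. Without myc2a replicate 1 there were 126 of 836 members and 8067 of 42949 gene models. The gap between members and all gene models depended on the libraries in the fit, so nothing is read from it. The member called was Ntab11g025250-1.1, with 218, 201 and 135 CPM in nic1 nic2 against 348, 359, 298 and 323 CPM in K326, so that the groups did not overlap. Its log2 fold change was -0.85 ± 0.19 (SE; edgeR adjusted p = 0.0445), lower in 3 of 3 libraries. The adjusted p ranged from 0.00185 to 0.358 over 24 alternatives and the call was lost in 14 of them. Among these were leaving out K326 replicate 1 (edgeR adjusted p = 0.103), 2 (0.121), 3 (0.0666) or 4 (0.0929), nic1 nic2 replicate 2 (0.0836) or 3 (0.199), myc2a replicate 2 (0.0611), 3 (0.0566) or 4 (0.0601), and nic1 nic2 myc2a replicate 1 (0.0563), and using the 2 groups only (0.0704), library size only (0.0505) or the replicate block (0.0588). The largest value, 0.358, was with K326 replicate 2 and nic1 nic2 replicate 3 both left out.

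In nic1 nic2 myc2a roots, 0 members were higher than in K326 and 1 was lower by the same test, where 0.114% of all gene models tested were higher and 0.181% lower. There were 75 members (8.95%) at an unadjusted p under 0.05, against 14.1% of all gene models, and the median log2 fold change was -0.02. This gap too is not read as a result. With the 2 groups alone the numbers were 154 of 811 members and 8162 of 41093 gene models. Without myc2a replicate 1 they were 121 of 836 members and 6548 of 42949 gene models. The member called was Ntab11g014000-1.1, with 29.0, 16.3, 31.7 and 18.2 CPM in nic1 nic2 myc2a against 61.6, 54.9, 38.9 and 56.6 CPM in K326, without overlap. Its log2 fold change was -1.15 ± 0.20 (SE; edgeR adjusted p = 0.0183), lower in 4 of 4 libraries. The adjusted p ranged from 4.9e-05 to 0.0820 over 24 alternatives. The call was lost in 6 of them, namely without K326 replicate 1 (edgeR adjusted p = 0.0763), 2 (0.0591) or 4 (0.0569), without nic1 nic2 myc2a replicate 2 (0.0652) or 4 (0.0820), and with K326 replicate 2 and nic1 nic2 replicate 3 both left out (0.0805). This member was at 30.0, 33.5 and 29.8 CPM in nic1 nic2, so all 12 libraries with a recessive allele lay below all 4 K326 libraries.

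Between nic1 nic2 myc2a and nic1 nic2, a comparison that the libraries that set the stretch enter only through the scaling, the filter and the shared estimate of the spread, edgeR called 0 of the 838 members in either direction, where 0.307% of all gene models tested were higher and 0.0977% lower. There were 48 members (5.73%) at an unadjusted p under 0.05, against 13.2% of all gene models. With the 2 groups alone the numbers were 70 of 818 members and 4258 of 41435 gene models. Without myc2a replicate 1 they were 79 of 836 members and 5967 of 42949 gene models, and nothing is read from the gap. Of the members, DESeq2 called 2 higher and 3 lower and limma-voom 1. Over all gene models tested, DESeq2 called 366 higher and 283 lower, and limma-voom 114 higher and 34 lower. The median log2 fold change was -0.03, with the middle 90% of members between -0.84 and 0.68 and a median SE of 0.31. The median was thus near 0, while single members scattered widely around it.

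For myc2a against K326, the contrast by which the stretch was chosen, the same test called 1 member higher, Ntab11g019180-1.1, and 41 lower, where 0.0326% of all gene models tested were higher and 0.137% lower. At an unadjusted p under 0.05 there were 524 members (62.5%), against 5.21% of all gene models, and the median log2 fold change of the members was -0.71, with replicate 1 in the group. Without myc2a replicate 1 the number called was 388 of 836 members tested, with 19 higher and 415 lower over all 42949 gene models. Without K326 replicate 1, 2, 3 or 4 it was 6, 4, 14 and 10, and without myc2a replicate 2, 3, 4 or 5 it was 10, 15, 10 and 14. It was also under the reported number by more than 1.5 times without nic1 nic2 replicate 1 (24) or 2 (22), and without nic1 nic2 myc2a replicate 1 (21), 2 (23), 3 (21) or 4 (20). Those libraries enter only through the scaling, the filter with the number of gene models tested, and the shared estimate of the spread. All these numbers of called members describe the choice of the stretch and carry no test of it.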

How the data were processed

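The deposited table held raw counts per gene model and library, checked to be whole numbers. The submitters' processing notes name HISAT2 2.1.0, bedtools, SAMtools and FastQC. The genome build, annotation and counting settings, strand included, are not given in the sources used here. Of the members' counts from 1 to under 200, 61.3% were even, more than odd ones. Counting both mates of each read pair would give such an excess, but this was not tested. Columns were matched to libraries by name; those of nic1 nic2 myc2a carry their letters in another order than the titles and were matched by letters and number. There were 0 unused columns. Of the identifiers, 0 matched the RefSeq table of gene names, so no sequences are shown.

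The members, rules and lists were chosen with earlier results of these data known. In R 4.3.3, edgeR 4.0.16 (filterByExpr at its defaults, TMM, glmQLFit, 1 mean per genotype over 16 libraries, 12 residual degrees of freedom) tested 43009 gene models, with Benjamini-Hochberg adjustment and a threshold of 0.05; 838 members passed the filter, partly through the libraries in which they are high. limma 3.58.1 (voom) and DESeq2 1.42.0 were alternatives. The procedure was tested on simulated data. Percents, blocks and level classes were computed in Python 3.11.15 from TMM-scaled CPM without a pseudocount. Folds against groups at 0 are bounds with 3 counts per library. Intervals for counting error were not used; the spread between libraries is given instead, and the members' summed counts were 283236 to 1136765 per library.

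The rule for naming took, among expressed members, the 5 with the highest level, the 5 with the highest and the 5 with the lowest median percent in myc2a replicates 2 to 5, the member nearest to each class median, members without counts in myc2a, the members at each end with the gene model just outside, and called members. Other names were chosen after their values were seen. Each library was left out in turn. The other alternatives were other scalings and expression limits, no filter, the 2 groups alone, the replicate number as a block, and the other tools.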

Additional observations from a re-analysis of the deposited data

Results flagged for a closer look

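Values far from the others of their genotype were looked for in 76 groups of 4 or 5 libraries, by the gap to the nearest library as a share of the group's range. Chance marks about 1 in 20 such groups. There were 14 values marked, and 10 of them were of myc2a replicate 1. The stretch was chosen on myc2a replicates 2 to 5 being low, and the groups share libraries, so that chance rate does not apply to these 10, which restate the choice.

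For the stretch as a whole, the marked values were the median of 98.3% of K326 and the sum of 16298 CPM in myc2a replicate 1, each far above the other 4 myc2a libraries. In 8 single members, myc2a replicate 1 was likewise the high value of its genotype. These were Ntab11g020300-1.1 (1099 CPM), Ntab11g014690-1.1 (346 CPM), Ntab11g016230-1.1 (78.1 CPM), Ntab11g019180-1.1 (57.4 CPM), Ntab11g017280-1.1 (39.9 CPM), Ntab11g018650-1.1 (23.8 CPM), Ntab11g018470-1.1 (4.25 CPM) and Ntab11g022400-1.1 (3.89 CPM). Of these, Ntab11g019180-1.1 was the member above K326 in all 5 libraries.

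The other 4 values were not of that library. Ntab11g022600-1.1 was high in myc2a replicate 4 (3.47 CPM) and in nic1 nic2 myc2a replicate 2 (12.4 CPM). Ntab11g025970-1.1 was also high in nic1 nic2 myc2a replicate 2 (9.37 CPM). Ntab11g016230-1.1 was high in K326 replicate 3 (78.8 CPM).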

How the results depend on the processing

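The medians of myc2a replicates 2, 3 and 4 stayed between 49.8 and 51.4% of K326 in the 11 alternatives each. For replicate 5 the range was 50.9 to 53.2%, except 56.0% with library size only, and for replicate 1 it was 97.0 to 99.0%, except 102% with a limit of 10 CPM. Leaving out K326 libraries gave 97.8 to 98.7, 50.0 to 50.4, 49.9 to 50.1, 50.6 to 51.1 and 51.2 to 52.4% in replicates 1 to 5. Members low in all 4 libraries numbered 457 to 468 without single K326 libraries and 298 with a limit of 10 CPM. Those at 70.7% or more in each numbered 8 without K326 replicate 2, 9 without K326 replicate 3 and 2 with 10 CPM; at 80% or more, 2 without K326 replicate 1 or 4. With 10 CPM, 1 member was at most at 35% and 0 at most at 12%, since both without counts in myc2a fall under that limit.

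Counts of members called differed between tools. For nic1 nic2 against K326 there were 16 with DESeq2, 3 with limma-voom, 5 with the 2 groups only and 0 with library size only. For nic1 nic2 myc2a against K326 there were 16 with DESeq2, 2 with limma-voom and 10 with the 2 groups only; against nic1 nic2, 5 with DESeq2 and 1 with limma-voom. For myc2a against K326 they were 160 with DESeq2, 74 with limma-voom, 17 with the 2 groups only and 25 with library size only. Over all 43009 gene models tested, DESeq2 called 894 higher and 1112 lower in nic1 nic2 against K326. In nic1 nic2 myc2a it called 501 and 497 against K326, and 366 and 283 against nic1 nic2. In myc2a against K326 it called 44 and 203. For limma-voom these numbers were 161 and 215, 69 and 75, 114 and 34, and 8 and 89, in the same order. Leaving out single libraries gave 0 to 7, 0 to 7, 0 to 2 and 4 to 388 in these 4 comparisons in turn. In nic1 nic2 against K326 the count was 7 without myc2a replicate 5 and 4 without myc2a replicate 1. Over all gene models, 295 were then higher and 451 lower, and 179 and 257. In nic1 nic2 myc2a against K326 the count was 7 without nic1 nic2 myc2a replicate 3, with 128 higher and 299 lower over all gene models. With K326 replicate 2 and nic1 nic2 replicate 3 both left out, chosen after seeing the data, the counts against K326 were 0, 0 and 7. The cause was not tested for any of these. Scaling to the rest of ID group 11 was also chosen after seeing the data.

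Deviations of same-numbered libraries correlated between -0.21 and 0.18 (21 pairs, median -0.01), and those of other numbers between -0.25 and 0.28 (74 pairs). Pairing by replicate number was thus not seen, which does not show that it was absent. With the replicate block, 2 members were called in nic1 nic2 against K326 and 21 in myc2a against K326, and the other 2 comparisons had 1 and 0 as without it.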
